A study of Oryza sativa Japonica Group with 10 samples.

Results

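Lsi1, Lsi2 and Lsi6 carry silicon in rice, a plant that takes up more of this element than most crops. Lsi1 and Lsi6 are channels of the aquaporin superfamily, of the NIP (nodulin 26-like intrinsic protein) branch, and let uncharged silicic acid pass. Lsi2 belongs to a different family of transporters and moves silicic acid out of cells. In rice roots Lsi1 and Lsi2 are known from the exodermis and the endodermis, the cell layers with Casparian strips, where Lsi1 lies on the outer side of the cell and Lsi2 on the inner side, so that silicon passes inward. Lsi6 is known from leaf sheaths, leaf blades and nodes, where it takes silicon out of the xylem, and from root tips. The 3 genes were taken by identifier, with no cutoff on their values, though earlier results of these data were known. They were LOC_Os02g51110 for Lsi1, LOC_Os03g01700 for Lsi2 and LOC_Os06g12310 for Lsi6. Each had 1 row of its own among the 33486 rows of the table, and all 3 were among the 19234 rows with enough counts to be tested.

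The study sequenced polyadenylated RNA of rice cultivar Nipponbare (GSOR-100), a japonica variety, from excised root tips, which comprised meristem and elongation zone, and from the remaining root system, called mature root. Seedlings were moved into hydroponic culture in Hoagland solution, a nutrient solution without soil, at an age of 12 days, and all of the plant, root included, then stood in the light. There were 3 root tip and 2 mature root libraries after 6 days in hydroponics, and the same numbers after 2 days. A pool of 6 plants went into each library, all untreated and of the same cultivar, so the day 6 plants were also the older ones, and their age, their time in hydroponics and the occasion of sampling cannot be told apart. The sources used here do not give whether the solution held silicon.

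Summed counts ran between 1428128 and 2560074 for root tips of day 6 and between 986907 and 2001408 for those of day 2. For mature root they ran between 2648858 and 3286439 (day 6) and between 2161392 and 2776544 (day 2). Levels are given as CPM, the deposited counts scaled to a common library size with TMM factors, and 3 counts corresponded to 0.809 to 2.69 CPM. The list of Casparian strip and suberin genes was chosen by description to stand for the endodermis and exodermis. It took in whole families, such as all dirigent and DUF588 rows, so not every row need belong to these layers. Of its tested rows 1 of 48 was higher and 11 lower in the tip, beside 3.18% of all tested rows called higher and 9.02% called lower. The list took 0.0525% to 0.108% of the counts in tip libraries and 0.129% to 0.221% in mature root libraries. Of its 80 rows, 11 stood at 0 in the tip libraries and 1 in the mature root libraries. Over all rows, 21740 to 24324 had a count in single tip libraries, against 24303 to 27726 in single mature root libraries. The share of all rows at 0 in a whole tissue was not counted. The meristem markers were rows whose description names histones, DNA polymerases, replication proteins or cyclins. This also took in cyclin-dependent kinases, their inhibitors and an RNA-directed DNA polymerase row. Of the 129 tested rows 6 were higher and 4 lower in the tip, read against the same 3.18% and 9.02%. The list took 1.02% to 1.59% of the counts there against 0.924% to 1.36% in mature root. Of these 159 marker rows 4 stood at 0 in tip libraries and 5 in mature root libraries. Green tissue markers, which encode chlorophyll-binding and photosystem proteins, had 27 of 28 tested rows lower in the tip, beside the 9.02% of all rows, and took 0.00805% to 0.0229% of the counts there against 0.307% to 0.616% in mature root. Of these 59 rows 7 stood at 0 in the tip and 8 in mature root. One light-harvesting row, LOC_Os02g10390, was at 0 counts in all tip libraries together, against 1209 for mature root.

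Lsi1 and Lsi2 were lower in the root tip than in mature root over both days, by 2.52-fold and 3.04-fold, while Lsi6 did not pass the test and had an estimate in the other direction. Per length, Lsi1 was the most abundant of the 3 in every library. The 2 calls compare with 9.02% of all tested rows called lower in the tip (1734 rows), 3.18% called higher and 12.2% called in either direction (2345 rows). That background count fell when any mature root library was left out: it was 845 without mature root day 6 replicate 1, 1363 without mature root day 6 replicate 2, 1337 without mature root day 2 replicate 1 and 1015 without mature root day 2 replicate 2. In whole tissue, a lower level cannot be told apart from a smaller share of the cells that hold the transcript. Most called rows of the Casparian strip and suberin list and of the green tissue list moved in the same direction as Lsi1 and Lsi2. So did 1734 of the 2345 called rows among all tested rows. The part of these lists in these differences was not tested.

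**Figure D1:**
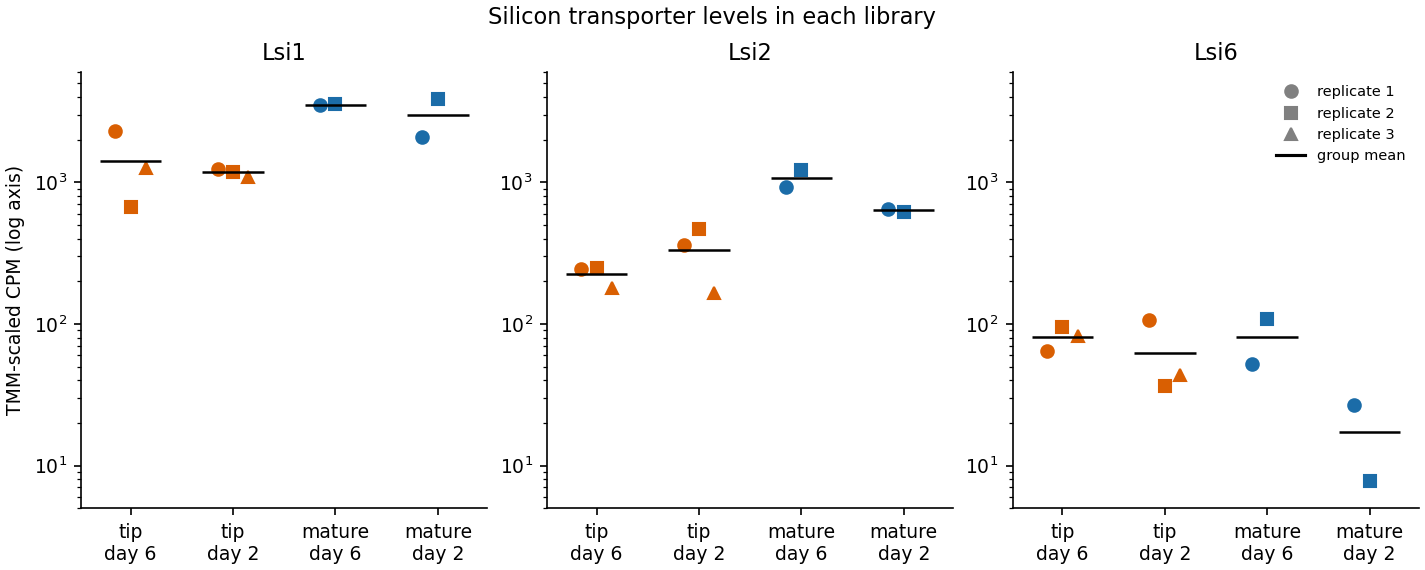
TMM-scaled CPM of Lsi1, Lsi2 and Lsi6 on a log axis in each of the 10 libraries, by tissue (orange, root tip; blue, mature root) and day. Symbols mark replicate numbers, for which no pairing of libraries between groups was seen, and black lines mark group means. On each day the tip libraries lay below the mature root libraries for Lsi1 and Lsi2, whereas Lsi6 was lowest in mature root on day 2.

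Lsi1, the influx channel, had 2312, 669.9 and 1263 CPM in the 3 tip libraries of day 6 and 1246, 1184 and 1099 CPM in those of day 2. In mature root it had 3527 and 3552 CPM on day 6 and 2085 and 3894 CPM on day 2. Within each day every tip library was below every mature root library, but over both days 1 tip library, day 6 replicate 1, exceeded the lowest mature root library. How many of all rows separate between groups in this way was not counted, so separation is given here and below as a description only. Lsi1 averaged 1296 ± 544 CPM over the tip libraries (SD, n = 6), against 3264 ± 804 CPM over those of mature root (SD, n = 4). The log2 fold change was -1.33 (SE 0.30, 95% interval -1.98 to -0.69; edgeR adjusted p = 0.0132, from its quasi-likelihood test with Benjamini-Hochberg adjustment). Leaving out mature root day 2 replicate 2 ended the call: the log2 fold change was then -1.08 (edgeR adjusted p = 0.0837), the highest adjusted p of the 15 alternatives run. Adding the replicate number to the model as a block ended the call as well (log2 -1.32, edgeR adjusted p = 0.0527). The contrast had nearly the same size on each day, -1.32 (SE 0.42, adjusted p = 0.0753) on day 6 and -1.35 (SE 0.42, adjusted p = 0.145) on day 2, and passed on neither (edgeR). The background was 7.08% of rows called on day 6 (1.33% higher in the tip) and 1.15% on day 2 (1.07% lower and 0.0832% higher in the tip). On day 6 it passed with library totals as scaling (adjusted p = 0.0458), without the filter on low counts (adjusted p = 0.00567) and without root tip day 6 replicate 1 (log2 fold change -1.89, adjusted p = 0.0194), and on day 2 without the filter (adjusted p = 0.00512). On day 2 it was -0.82 without mature root day 2 replicate 2 (adjusted p = 0.671).

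Lsi2, the efflux transporter, had 245.5, 250.5 and 179.6 CPM in the tip libraries of day 6 and 359.2, 468.3 and 165.8 CPM in those of day 2. In mature root it had 929.9 and 1230 CPM on day 6 and 649.0 and 622.9 CPM on day 2. Here all 6 tip libraries were below all 4 mature root libraries, given without the share of all rows that do so. Lsi2 averaged 278 ± 116 CPM over the tip libraries (SD, n = 6), against 858 ± 284 CPM over those of mature root (SD, n = 4). The log2 fold change was -1.60 (SE 0.30, 95% interval -2.25 to -0.95; edgeR adjusted p = 0.00557). It stayed called under each of the 15 alternatives run, with an adjusted p of at most 0.0265. On day 6 the log2 fold change was -2.26 (SE 0.43, edgeR adjusted p = 0.0122), a 4.79-fold lower level in the tip, beside 5.75% of rows called lower on that day. This call did not hold once either mature root library of day 6 was left out, with an adjusted p of 0.0582 lacking replicate 1 and 0.0546 lacking replicate 2 (edgeR). On day 2 the value was -0.94 (SE 0.42) and did not pass (edgeR adjusted p = 0.286). The size on day 6 minus that on day 2 was -1.32 (SE 0.61, 95% interval -2.64 to 0.00), with an edgeR adjusted p = 0.528, so the days were not shown to differ. In that test 0% of rows were called, against 1821 at an unadjusted p under 0.05, 94 called by DESeq2 and 554 by edgeR without the filter.

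Lsi6, the channel known from leaves and root tips, had 64.7, 95.4 and 81.7 CPM in the tip libraries of day 6 and 106, 36.6 and 43.8 CPM in those of day 2. In mature root it had 52.3 and 108 CPM on day 6, and 26.7 and 7.74 CPM on day 2, the last from 16 counts. The tissues overlapped over both days and on day 6, whereas on day 2 the 3 tip libraries were above the 2 mature root libraries. Lsi6 averaged 71.4 ± 27.9 CPM over the tip libraries (SD, n = 6), against 48.8 ± 43.8 CPM over those of mature root (SD, n = 4). The fitted log2 fold change, which averages the days on the log scale, was 0.92 (SE 0.48, 95% interval -0.13 to 1.97) and did not pass (edgeR adjusted p = 0.227). On day 6 it was 0.00 (SE 0.66, 95% interval -1.43 to 1.43, edgeR adjusted p = 0.998), and it lay between -0.45 and 0.62 with single libraries left out. On day 2 it was 1.83 (SE 0.71, 95% interval 0.29 to 3.38), which missed the threshold once adjusted over all rows (edgeR adjusted p = 0.224). That value was 1.21 without mature root day 2 replicate 2 and 2.98 without mature root day 2 replicate 1. The difference between these 2 contrasts, day 6 minus day 2, was -1.83 (SE 0.95, edgeR adjusted p = 0.55). It was -3.0 without mature root day 2 replicate 1, and -1.21 without root tip day 2 replicate 1, -1.22 without mature root day 2 replicate 2 and -1.20 without mature root day 6 replicate 2.

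**Figure D2:**
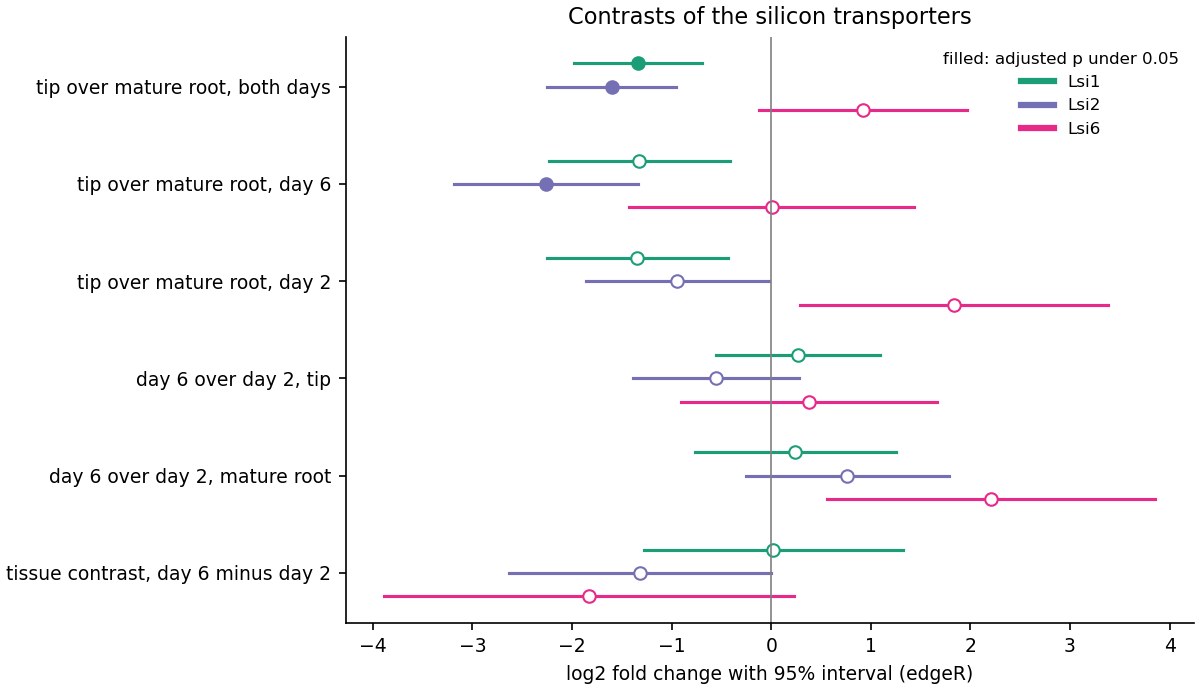
Log2 fold changes of the 3 transporters with 95% intervals from edgeR for 6 contrasts, each named by the group on top and the group below it. Filled points passed an adjusted p of 0.05: Lsi1 and Lsi2 over both days and Lsi2 on day 6, all lower in the tip.

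The ratio of 2 transporters within a library needs no scaling between libraries and shows whether their tissue contrasts differ. Lsi6 was higher in the tip relative to each of the other genes, and the ratio of Lsi2 to Lsi1 was not shown to differ between tissues. The log2 ratio of Lsi6 to Lsi1 counts averaged -4.18 ± 0.91 over the tip libraries (SD, n = 6), against -6.58 ± 1.66 over those of mature root (SD, n = 4), a difference of 2.40 (exact two-sided permutation test, p = 0.019, adjusted over 3 ratios p = 0.0286). The log2 ratio of Lsi6 to Lsi2 averaged -1.96 ± 0.89 over the tip libraries, against -4.63 ± 1.19 over those of mature root, a difference of 2.67 (exact two-sided permutation test, p = 0.019, adjusted p = 0.0286). The smallest p that 6 against 4 libraries allow is 0.00952. For both ratios 1 tip library reached into the mature root range, day 6 replicate 1 for Lsi6 to Lsi1 at -5.15 and day 2 replicate 2 for Lsi6 to Lsi2 at -3.66. The log2 ratio of Lsi2 to Lsi1 was -2.22 ± 0.80 over the tip libraries, against -1.95 ± 0.49 over those of mature root, a difference of -0.28 (exact two-sided permutation test, p = 0.6), and its tip values from -3.23 to -1.34 enclosed all mature root values. Within day 6 the differences were 1.58 for Lsi6 to Lsi1 and 2.34 for Lsi6 to Lsi2, and within day 2 they were 3.21 and 3.00, where 3 against 2 libraries cannot give an exact p below 0.2. For Lsi2 to Lsi1 the within-day differences had opposite signs, -0.76 on day 6 and 0.21 on day 2 (exact two-sided permutation test, p = 0.6 and 1.0). The adjusted p of both Lsi6 ratios rose to 0.0714 without mature root day 6 replicate 1 or without either mature root day 2 replicate, and without mature root day 2 replicate 2 the Lsi6 to Lsi1 difference was 1.61.

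**Figure D3:**
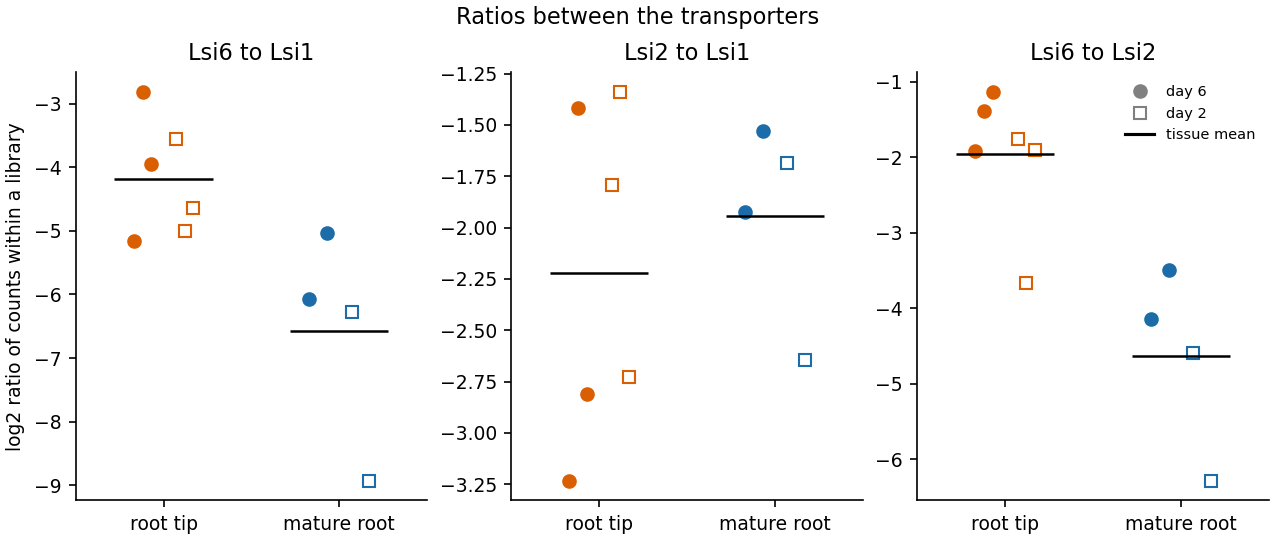
Log2 ratios of counts between 2 transporters within each library (0.5 counts added to each), for the 6 root tip and 4 mature root libraries; each panel has its own vertical axis. Filled circles are day 6, open squares day 2, and black lines tissue means, which for Lsi6 to Lsi1 were -4.18 in the tip and -6.58 in mature root.

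Levels of different genes were compared per length, as CPM per kb of the summed exon length in the deposited table, which is 2466 bases for Lsi1, 2306 for Lsi2 and 2335 for Lsi6. In the tip Lsi1 averaged 525 ± 221, Lsi2 121 ± 50.2 and Lsi6 30.6 ± 11.9 CPM per kb (SD, n = 6). In mature root the averages were 1324 ± 326, 372 ± 123 and 20.9 ± 18.7 CPM per kb (SD, n = 4). The order Lsi1, Lsi2, Lsi6 thus held in all 10 libraries. Per kb, Lsi1 was 2.36 to 8.81 times Lsi2 in tip libraries (median 4.72) and 2.70 to 5.85 times in mature root libraries (median 3.28). It was 6.65 to 33.9 times Lsi6 in tip libraries and 31.0 to 476 times in mature root libraries, the highest in mature root day 2 replicate 2. In the 4 mature root libraries Lsi1 ranked between 12 and 27 among all 33486 rows by CPM per kb, and in the 6 tip libraries between 49 and 295. Lsi2 ranked between 48 and 239 in mature root and between 431 and 1129 in the tip.

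The 4 groups could be ordered by level for each gene, though several neighbours overlapped. Lsi1 was highest in mature root on day 6 (3539 ± 18 CPM, SD, n = 2) and on day 2 (2989 ± 1279 CPM, SD, n = 2), whose libraries overlapped, and then came the tip on day 6 (1415 ± 832 CPM, SD, n = 3) and on day 2 (1176 ± 73.4 CPM, SD, n = 3), which overlapped as well. Lsi2 was highest in mature root on day 6 (1080 ± 212 CPM, SD, n = 2), followed without overlap by mature root on day 2 (636 ± 18.5 CPM, SD, n = 2). Its tip groups, with 225 ± 39.6 CPM on day 6 and 331 ± 153 CPM on day 2 (SD, n = 3 each), overlapped. For Lsi6 the tip on day 6 (80.6 ± 15.4 CPM, SD, n = 3), mature root on day 6 (80.4 ± 39.7 CPM, SD, n = 2) and the tip on day 2 (62.2 ± 38.1 CPM, SD, n = 3) overlapped, and mature root on day 2 lay below them (17.2 ± 13.4 CPM, SD, n = 2).

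None of the 3 genes passed the test between days. The largest difference in time was that of Lsi6 in mature root, at a log2 fold change of 2.21 for day 6 over day 2 (SE 0.76, 95% interval 0.56 to 3.86, edgeR adjusted p = 0.334). It was positive under all 15 alternatives, between 1.60 and 3.39. It depended on single libraries: it was 1.61 without mature root day 2 replicate 2, 1.60 without mature root day 6 replicate 2 and 3.39 without mature root day 2 replicate 1. Lsi2 in mature root had 0.76 (SE 0.47, 95% interval -0.26 to 1.78) and Lsi1 0.24 (SE 0.47, 95% interval -0.77 to 1.25), with edgeR adjusted p of 0.614 and 0.908. In the tip the log2 fold changes of day 6 over day 2 were 0.27 (SE 0.38) for Lsi1, -0.56 (SE 0.38) for Lsi2 and 0.38 (SE 0.59) for Lsi6, and the smallest edgeR adjusted p was 0.627. The Lsi1 value in the tip was -0.28 without root tip day 6 replicate 1. In mature root the Lsi1 value was -0.12 without mature root day 2 replicate 1 and 0.78 without mature root day 2 replicate 2. In edgeR 0% of rows were called between days in either tissue, with 2063 at an unadjusted p under 0.05 in the tip and 2072 in mature root. DESeq2 called 130 and 375 rows and edgeR without the filter 1002 and 736, none of them a silicon transporter.

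Rows described as aquaporins, the channel family of Lsi1 and Lsi6, were called lower in the tip about as often as all rows. The table held 30 aquaporin rows with Lsi1 and Lsi6 among them, of which 20 were tested. Over both days 2 of the 20 were called lower in the tip and 0 higher, beside 9.02% and 3.18% of all tested rows, with a median log2 fold change of 0.14, beside 0.05 over all tested rows. The 2 were Lsi1 and LOC_Os05g14240, with 14.1 ± 8.65 CPM over the tip libraries (SD, n = 6), against 77.2 ± 35.4 CPM over those of mature root (SD, n = 4). The log2 fold change of LOC_Os05g14240 was -2.38 (SE 0.48, edgeR adjusted p = 0.00855). Lsi1 had the highest level per kb of all 30 aquaporin rows in each of the 4 mature root libraries and ranked 1 to 3 in the tip libraries. It took 11.3% to 21.8% of the summed aquaporin CPM per kb in tip libraries (median 14.5%) and 28.1% to 42.2% in mature root libraries (median 32.2%), without overlap between the tissues. Lsi6 ranked 13 to 15 in tip libraries and 13 to 17 in mature root libraries, with shares of 0.567% to 1.70% and 0.0887% to 1.03%.

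**Figure D4:**
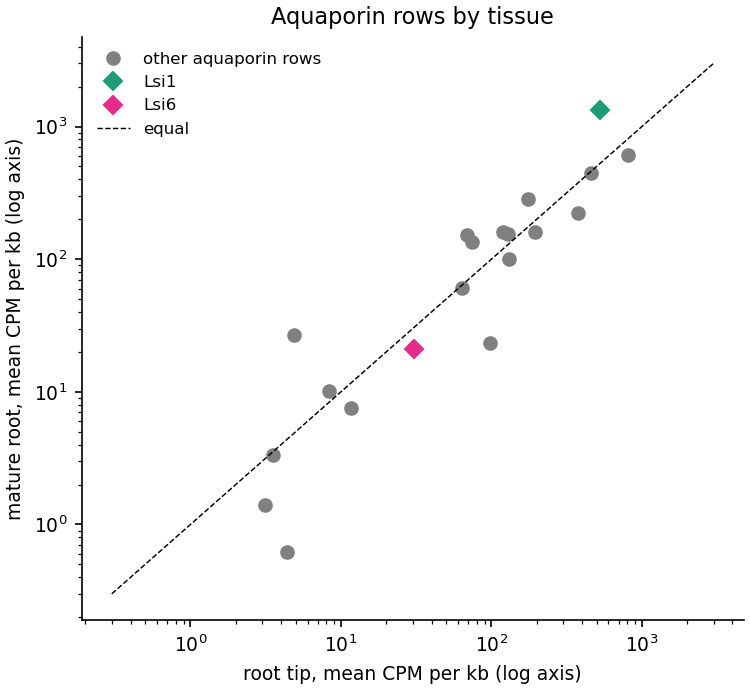
Mean CPM per kb of exon in root tip (n = 6 libraries) and mature root (n = 4) for the 20 tested aquaporin rows, both on log axes; the dashed line marks equal levels. Lsi1 lies above the line, at 525 in the tip and 1324 in mature root, and Lsi6 below it, at 30.6 in the tip and 20.9 in mature root.

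Lsi1 and Lsi2 are also known to pass arsenite, and Lsi1 is known to pass boric acid, so rows described for boron or arsenic transport were set beside them. Of 4 such rows, all tested, 1 was lower in the tip and 0 higher, beside 9.02% and 3.18% of all tested rows. This was LOC_Os02g49680, described as an arsenate reductase, an enzyme class that turns arsenate into arsenite, with 2 counts in all tip libraries together, against 168 for mature root (edgeR adjusted p = 0.00342). The mature-root-to-tip ratio, scaled for library size, was 78.5, with an exact 95% counting interval from 21.4 to 654 that covers counting error only. The boron transporter row LOC_Os12g37840 averaged 142 ± 103 CPM over the tip libraries (SD, n = 6), against 149.6 ± 41.2 CPM over those of mature root (SD, n = 4), and did not pass (log2 -0.13, edgeR adjusted p = 0.86). Of the Casparian strip and suberin list, the 2 rows with the smallest p were LOC_Os08g44360 and LOC_Os07g26110, both lower in the tip. LOC_Os08g44360 is described as male sterility protein 2, a name for enzymes of the fatty acyl reductase family, and averaged 2.86 ± 2.00 CPM over the tip libraries (SD, n = 6), against 285 ± 99.1 CPM over those of mature root (SD, n = 4), with log2 -6.57 (SE 0.55, edgeR adjusted p = 8.54e-05). LOC_Os07g26110 has the DUF588 domain that Casparian strip membrane proteins share, and averaged 12.4 ± 2.97 CPM over the tip libraries (SD, n = 6), against 211 ± 228 CPM over those of mature root (SD, n = 4), with log2 -3.67 (SE 0.44, edgeR adjusted p = 5.46e-04). Of the 48 tested rows of that list 11 were called lower in the tip and 1 higher, beside 9.02% and 3.18% of all tested rows. The row called higher was the dirigent row LOC_Os11g07680, with log2 2.82 (SE 0.62, edgeR adjusted p = 0.0127). The median log2 fold change of the 48 rows was -0.62, a smaller change than in either of the rows with the smallest p.

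The described rows with the profile most like each transporter were found by the root mean square distance of log2 CPM over the 10 libraries, each row centred on its own mean, among 16124 rows of at least 5 CPM. For Lsi1 the nearest was the phenylalanine ammonia-lyase row LOC_Os02g41680-ext, of the entry enzyme of the lignin pathway, at a distance of 0.25, against a median of 1.15. It had 2124 CPM in the tip and 5579 in mature root on average. The next were LOC_Os02g32280-ext without a described function (0.26), a protein kinase domain row LOC_Os12g40419-ext (0.28), LOC_Os01g60860, named after the spotted leaf gene (0.29), and LOC_Os06g14030, described as the outward potassium channel SKOR (0.30). For Lsi2 they were LOC_Os01g13690 (0.30), the dehydrogenase row LOC_Os11g10520-ext (0.33), the glycosyl hydrolase row LOC_Os02g51680 (0.35), the MYB transcription factor LOC_Os01g49160 (0.35) and LOC_Os03g48430, described as a homolog of the last enzyme of ethylene synthesis (0.36), against a median of 1.24. For Lsi6 no row came as near, and the smallest distances were 0.48 for each of the peroxidase rows LOC_Os03g25280 and LOC_Os03g25300, 0.49 for the F-box row LOC_Os09g38300-ext, 0.54 for the annexin LOC_Os05g31760 and 0.55 for the ABC transporter LOC_Os04g46700, against a median of 1.34. Lsi1 and Lsi2 lay 0.64 apart, with 690 of the 16124 rows nearer to Lsi1, while Lsi6 lay 1.59 from Lsi1 and 1.56 from Lsi2.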

How the data were processed

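Raw read counts were deposited by the authors as 1 table of whole numbers for the 10 libraries, not normalized, together with the number of exons and the summed exon length, per the file headers. Bowtie, SAMtools 0.1.12a, TopHat 1.3.1 and Cufflinks 1.0.3 appear in the submitters' processing notes with no role stated. The sources used here do not give the genome build, the counting tool, or how it treated strand and reads that match both Lsi1 and Lsi6. Sample descriptions tied each column to its library, and 0 columns were left over.

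Rows were kept by filterByExpr (minimum count 10, minimum total 15), scaled by TMM and fitted with edgeR 4.0.16 quasi-likelihood models in R 4.3.3 over the 4 groups. The threshold for a call was an adjusted p under 0.05 (Benjamini-Hochberg, over 19234 tested rows). Ratios used counts plus 0.5 and exact two-sided permutation tests (SciPy 1.17.1), which exchanged libraries across days without keeping the day fixed. The alternatives were DESeq2 1.42.0 size factors or test, library totals, no filter, a replicate block, another pseudocount, single days and each library left out, which takes the lone library of a group of 2 to have the spread of the other groups. The steps were tested on simulated data. Per the labels the pools are independent biological replicates, so p-values measure the spread between pools, and no pair of a group agreed within sampling noise (lowest chi-square per degree of freedom 14.7). Whether tip and mature root pools of the same day came from the same plants was not established here.

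The members, though picked by identifier, and the gene lists were chosen with earlier results of these data known. Lists were patterns on the deposited descriptions; entries that match cyclin only within recycling, or as cyclin-like F-box, were dropped after the data were seen. Rows named besides the members were the called boron or arsenic rows, the 2 aquaporin rows and the 2 Casparian strip and suberin rows with the smallest p, and the 5 nearest profiles (at least 5 CPM). Neighbouring rows were picked by locus number. LOC_Os12g37840, LOC_Os02g10390 and LOC_Os11g07680 were chosen after their values were seen. A list of NIP and Lsi2-like genes from the RefSeq gene table of assembly ASM3414082v1 was not formed, as 0 of the identifiers matched; that table lists the names Lsi1, Lsi2 and Lsi6 on chromosomes 2, 3 and 6. No sequences and no coordinates are given.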

Additional observations from a re-analysis of the deposited data

Results flagged for a closer look

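Of 12 checks, 1 for each transporter and each ratio in each tissue, 2 held a library far from the others. Chance flags about 5% of such groups if their values are normal. All checks pooled both days, the transporter checks used CPM without logs, and the checks share genes, so that rate is approximate. Lsi1 had 2312 CPM in root tip day 6 replicate 1, above the other 5 tip libraries, which lay between 669.9 and 1263 CPM. It passed the limit narrowly: the gap to the next library was 0.639 of the range, against a limit of 0.625. The log2 ratio of Lsi6 to Lsi2 was -3.66 in root tip day 2 replicate 2, below the other tip libraries. That library had the highest Lsi2 level (468.3 CPM) and the lowest Lsi6 level (36.6 CPM) of the 6 tip libraries.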

How the results depend on the processing

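Over both days Lsi1 and Lsi2 were lower in the tip under all 15 alternatives, between -1.62 and -1.08 and between -1.77 and -1.37 on the log2 scale, and with 1 library left out between -1.62 and -1.08 and between -1.77 and -1.46. Lsi6 stayed above 0, between 0.60 and 1.48, and passed under none. With the replicate block Lsi1 missed the threshold (log2 -1.32, edgeR adjusted p = 0.0527), and the block changed no other call of the 3 genes. Lsi1 over both days lost its call in 2 of the 15 alternatives, the block included, and Lsi2 on day 6 in 2 of 15. The 13 library pairs of equal number had deviations from their group means that did not go together (mean correlation across genes -0.01, highest 0.02). No pairing by number was thus seen. The check takes all tested rows together, so it cannot exclude a pairing in part of the genes. The counts of called rows moved more. Over both days they were 4063 without the filter, 3569 by DESeq2 and 1266 with the replicate block. For day 6 these counts were 2981, 2741 and 579, and for day 2 they were 1734, 1034 and 135. Between days the counts without the filter and by DESeq2 were 1002 and 130 in the tip, 736 and 375 in mature root, and 554 and 94 for the difference between days. With 1 library left out the counts ran from 845 to 2523 over both days, from 113 to 1379 on day 6, from 42 to 312 on day 2, from 0 to 57 between days in mature root and from 0 to 2 for the difference between days. With 1 library left out the Lsi6 ratios ran from 1.61 to 2.91 (to Lsi1) and from 2.12 to 3.05 (to Lsi2). Within single days they were 1.58 and 2.34 (day 6) and 3.21 and 3.00 (day 2), too few libraries for a call. Each of these 2 ratios lost its call in 5 of 13 alternatives, the single days among them. The median log2 fold change of all tested rows was between -0.05 and 0.05 in every scaling and test. The causes of these shifts were not tested. Lsi6 had the fewest counts of the 3 genes, as low as 16 in 1 mature root library of day 2.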

Other observations

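Rows with the nearest locus numbers were looked at because reads of overlapping genes cannot be told apart without strand. The rows on either side of Lsi1 had few counts: LOC_Os02g51100-ext, described as an arsenical pump-driving ATPase, had 77 in all tip libraries together, against 117 for mature root, and LOC_Os02g51119 had 132 and 116, against 12589 and 35673 for Lsi1. The next rows outward, LOC_Os02g51080 (39 and 316) and LOC_Os02g51130 (22 and 246), were called lower in the tip like Lsi1. Their edgeR adjusted p were 0.00373 and 0.0041, beside 9.02% of all tested rows called lower. Beside Lsi2, with 2709 counts for the tip, against 9971 for mature root, LOC_Os03g01710-ext had 767 in the tip and 344 in mature root. Beside Lsi6, with 760 counts for the tip, against 619 for mature root, the amino acid transporter row LOC_Os06g12320 had 162 in the tip and 76 in mature root, and LOC_Os06g12290 had 0 and 1. Beyond the latter, the glycosyl transferase row LOC_Os06g12280-ext had 673 in the tip and 173 in mature root, and was not called (edgeR adjusted p = 0.0762). Whether any of these rows overlaps its neighbour was not examined.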
